A study of Homo sapiens with 414 samples.

Results

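Lead acetate at 30 µM was followed for 39 days in human neural cultures, as 1 of 45 compounds of a neurotoxicity screen. The 11 libraries whose compound label is Lead acetate, of 414 libraries in all, were set against every library of the same day whose compound is classed as non-toxic, 148 libraries in total. Lead libraries were collected on days 1, 2, 3, 4 and 6, called the early days here, and on days 8, 10, 15, 21, 27 and 39, called the late days, with 1 library a day. Lists of lead values follow this order of days.

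The cells, H1-NPC, are neural progenitor cells derived from H1, a human embryonic stem cell line. Progenitors were expanded with FGF2, seeded into wells, exposed to a compound from the day of seeding and lysed in the well at each time. The lead group was 30 µM Lead acetate, labelled toxic. The 16 non-toxic compounds were Ficoll 400, Fructose, Glycerol, Glyphosate, PEG 3350, Saccharin, Sorbitol and Sucrose at 10 µM, Acetaminophen at 10 µg/ml, Amoxicillin at 5 µg/ml, Aspirin and Ibuprofen at 20 µg/ml, Glucosamine at 0.4 µg/ml, Naproxen sodium at 30 µg/ml, PVP at 100 µg/ml and DMSO at 0.10%. Both groups share the cell line and protocol. DMSO entered as 1 of the 16, since the labels name no compound for which it was the vehicle. Nothing in the labels says that libraries came from separate cultures, so p-values measure the spread between these libraries, which may be technical.

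Lead is a divalent metal without a known role in the body, and the developing nervous system is its best known target. It binds thiol groups, displaces zinc from proteins such as the heme enzyme delta-aminolevulinic acid dehydratase, passes through and blocks calcium channels, and blocks NMDA-type glutamate receptors. Cells answer metals through MTF1, which switches on metallothioneins and zinc export, and electrophiles and oxidants through NRF2, which switches on detoxifying enzymes, glutathione supply and ferritin. Misfolded proteins in the endoplasmic reticulum (ER) switch on XBP1 and chaperones, and DNA damage and other stresses act through p53.

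Levels are the authors' TPM, which give a gene's share of all transcripts in a library after correction for transcript length. Differences are lead minus non-toxic on the log2(TPM + 1) scale, on which the change of low genes is understated. Each is given with its standard error (SE) from limma, with p-values adjusted by Benjamini-Hochberg over 15255 genes, and a gene is said to have risen or fallen where the adjusted p was under 0.05.

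Lead libraries held 13334 to 14209 genes at 1 TPM or more and non-toxic libraries 11861 to 14260. The day 8 Ibuprofen library, with the lowest of these counts, stood apart from the other non-toxic ones, and it sets the lowest non-toxic value of many genes on that day. The trend of a library's deviation with transcript length had slopes of −0.044 to −0.004 in early lead libraries, against −0.013 to 0.013 in early non-toxic ones. On late days it had slopes of −0.069 to 0.021 with lead and −0.309 to 0.055 in non-toxic libraries. The progenitor factor SOX2 stood at 201 to 267 TPM in early lead libraries, against 156 to 309.9 TPM in non-toxic ones, and the neuronal tubulin TUBB3 at 1659 to 3527 TPM, against 1675 to 3939 TPM; markers of the labelled neural cells were thus present in both groups.

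Over days 1 to 39, 7043 genes, 46.2% of those tested, differed between lead and non-toxic libraries. Of these 3233 rose (21.2%) and 3810 fell (25.0%), and most changes were small, since 100 of the rises and 9 of the falls reached 1 on the log2 scale. On the early days 3456 genes (22.7%) changed, 1646 upward (10.8%) and 1810 downward (11.9%). On the late days 7026 genes (46.1%) changed, 3243 upward (21.3%) and 3783 downward (24.8%). The lead effect itself differed between late and early days for 2771 genes (18.2%), more positive late for 1418 (9.30%) and more negative late for 1353 (8.87%). Without the day 21 lead library that last count was 846. With the length trend, described above, as a covariate, the split of higher and lower genes shifted upward, to 5776 and 3118 over all days, 4718 and 1883 early and 5253 and 3468 late. Without days 15 and 21 the late split was 3157 and 2313.

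With each non-toxic compound in turn in lead's place, the test over days 1 to 39 called no gene for 10 of 16 compounds, 5708 for Ibuprofen and at most 47 for any other. Without its day 8 library, Ibuprofen had 99 calls. On the early days 13 of 16 compounds had no call and the highest count was 11, for Glyphosate. Unadjusted p-values under 0.05 numbered 228 to 1005 per compound on those days and 251 to 7281 over all days. Against the 11 DMSO libraries alone, the lead calls numbered 864 on the early days, and the late minus early contrast called 142 genes. Late and early effects differed for 59 of the 94 genes examined singly, against 18.2% of all genes, though some of the 94 were picked by this contrast. Against DMSO alone they differed for 10 of these 59, namely PTGDS, S100B, SLC16A3, HK2, FGF19, ROBO3, RORB and the lysosomal genes LAMP1, CD63 and CTSD. Calls given below that did not hold against DMSO alone are the early changes of COL3A1, CRELD2, CTSD, HIST1H2AC, LDHA, MT1M, NEUROG2, ROBO3 and VEGFA, the late ones of HSPA1A and VEGFA, and those of GFAP and TUBB3 over all days.

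**Figure D1:**
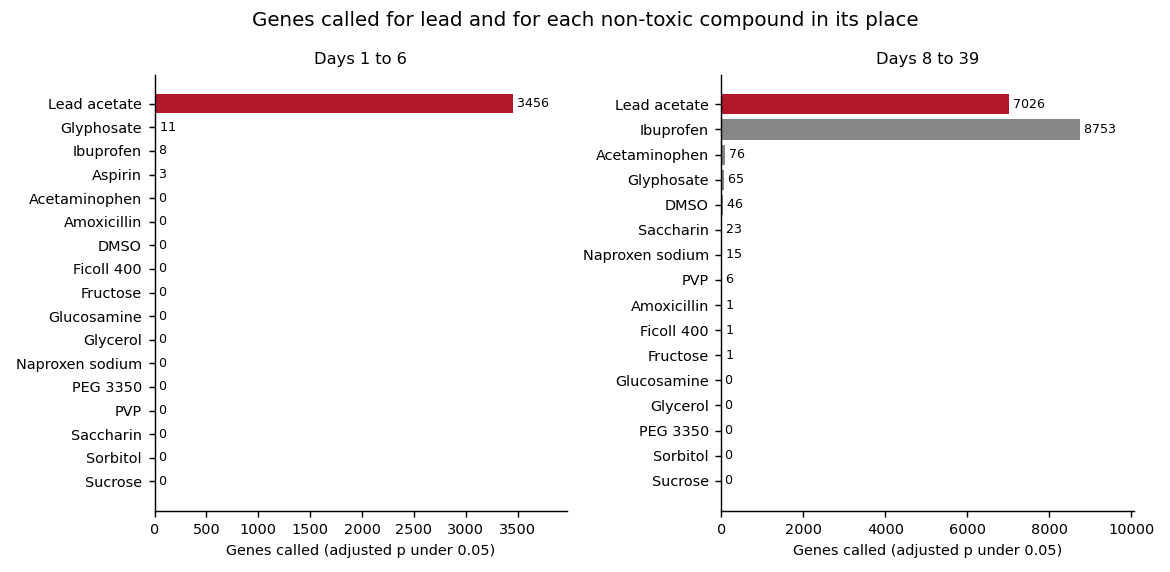
Number of genes called at an adjusted p under 0.05 (bars, linear axis from 0) for lead acetate and for each non-toxic compound put in its place, on days 1 to 6 (16 compounds) and days 8 to 39 (15 compounds). Lead has 3456 and 7026 calls; the non-toxic compounds have at most 11 on days 1 to 6 and, apart from Ibuprofen with 8753 (183 without its day 8 library), at most 76 on days 8 to 39.

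The largest responses were in the metal-binding genes. Of 12 metallothionein and zinc export genes, 8 passed the filter of 1 TPM in 5 libraries; 7 of these 8 rose over days 1 to 39, against 21.2% of all genes, with a median difference of 2.37 against −0.02 over all genes. The count was 7 of 8 on the early days as well (10.8% of all genes higher), with a median of 1.63 against −0.01, and 8 of 8 on the late days (21.3% of all genes), with a median of 2.82 against −0.03. The members MT1A, MT1B, MT1H and SLC30A2 did not pass. The promoters of both most responsive members are shown because their letters hold repeats of the metal response core that MTF1 is known to bind. The bases are the 250 before the RefSeq start in GRCh38.p14, plus strand, with matches to TGCACNC or TGCGCNC on either strand in capitals; the expression files use another build, hg19.
MT2A promoter, chr16:56608334-56608583: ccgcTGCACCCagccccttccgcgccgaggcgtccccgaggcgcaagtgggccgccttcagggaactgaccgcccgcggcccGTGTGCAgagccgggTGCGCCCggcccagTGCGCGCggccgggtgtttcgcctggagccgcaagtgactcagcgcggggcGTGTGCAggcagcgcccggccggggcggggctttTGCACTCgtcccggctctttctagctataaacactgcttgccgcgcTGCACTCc
MT1X promoter, chr16:56682220-56682469: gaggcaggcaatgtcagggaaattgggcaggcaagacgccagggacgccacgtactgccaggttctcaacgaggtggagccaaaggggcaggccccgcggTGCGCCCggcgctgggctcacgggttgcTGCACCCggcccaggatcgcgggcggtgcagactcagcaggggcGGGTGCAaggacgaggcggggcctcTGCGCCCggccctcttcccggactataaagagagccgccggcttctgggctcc

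The MT2A stretch held 7 matches and the MT1X stretch 4, none overlapping. One match or more stood in 24.8% of 35116 RefSeq stretches of that length, and 4 or more in 0.37%. Of the 8 members tested, 3 were in the RefSeq table (MT2A, MT1X and SLC30A1), and each held a match in at least 1 of its stretches. A match describes letters and does not show binding.

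MT2A, the main metallothionein of most human tissues, stood at 35.8, 38.4, 134, 68.0 and 49.7 TPM in early lead libraries, against 0 to 15.7 TPM in early non-toxic ones. On late days it reached 125, 1723, 1469, 569, 594 and 904 TPM with lead, against 4.05 to 154 TPM without. Every lead library was above every non-toxic library of its day. The highest 2 lead values fell on days 10 and 15, while non-toxic cultures were highest on day 39. MT2A rose by 3.15 ± 0.28 (SE, adjusted p = 1.0e-18, 5 lead and 79 non-toxic libraries) early and by 4.74 ± 0.26 (adjusted p = 1.0e-36, 6 and 69 libraries) late. Its late effect was larger by 1.59 ± 0.37 (adjusted p = 7.4e-04).

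MT1X, another metal-binding isoform, had 33.5, 31.9, 74.6, 60.7 and 69.2 TPM in early lead libraries, against 0 to 19.6 TPM in non-toxic ones, and 56.4, 494, 203, 147, 163 and 392 TPM late, against 0 to 66.6 TPM. It too exceeded the same-day non-toxic range on 11 of 11 days, with its peak on day 10. MT1X rose by 4.10 ± 0.27 over all days (adjusted p = 6.8e-30). MT1E was almost silent in early non-toxic cultures, at 0 to 1.04 TPM, and had 3.98, 0.680, 29.8, 6.00 and 2.20 TPM with lead; late lead libraries had 3.21, 217, 79.2, 46.5, 49.5 and 186 TPM, against 0 to 16.8 TPM. On the log2(TPM + 1) scale the lead effect on MT1E was 2.61 ± 0.41 larger late than early (adjusted p = 1.7e-07). This was the largest such increase among the genes named by the selection rule. Mean levels were 8.53 TPM with lead and 0.0999 TPM without early, and 96.8 and 1.39 TPM late. The added 1 holds the early difference down at such levels, so the contrast does not show a larger fold change late. MT1F was above the non-toxic range on 11 of 11 days and rose by 3.35 ± 0.23 (adjusted p = 1.4e-27). Copies of the MT1 family are nearly identical, so the division of reads among them is uncertain.

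The zinc exporter SLC30A1, a further MTF1 target, had 16.99, 26.9, 24.4, 21.6 and 20.1 TPM in early lead libraries, against 6.34 to 17.1 TPM in non-toxic ones, and 18.3, 48.8, 19.5, 32.3, 40.8 and 46.4 TPM late, against 1.17 to 18.8 TPM. It stood above the range on 11 of 11 days and rose by 0.87 ± 0.14 early and 1.84 ± 0.13 late (adjusted p = 8.9e-08 and 7.0e-28). MT3, the metallothionein of the brain, behaved differently. It increased with culture age in both groups, reaching 416 TPM with lead on day 39, against 275 to 398 TPM in non-toxic libraries, and passed the test only on late days (0.51 ± 0.19, adjusted p = 0.018). Without the lead library of day 15 or of day 21 its late difference was 0.44 or 0.39 and did not pass. MT1G and MT1M were at or near 0 in most libraries, and the early rise of MT1M rested on day 3, without which its early difference was −0.050. Among 18 other zinc carriers tested, 8 rose and 1 fell, with a median of 0.09, and 21.2% of all genes rose; the 8 were 4 against DMSO alone and 14 with the length covariate. In this group the uptake carrier SLC39A8 rose by 0.65 ± 0.12 late and the neuronal vesicle carrier SLC30A3 fell by 0.65 late.

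**Figure D2:**
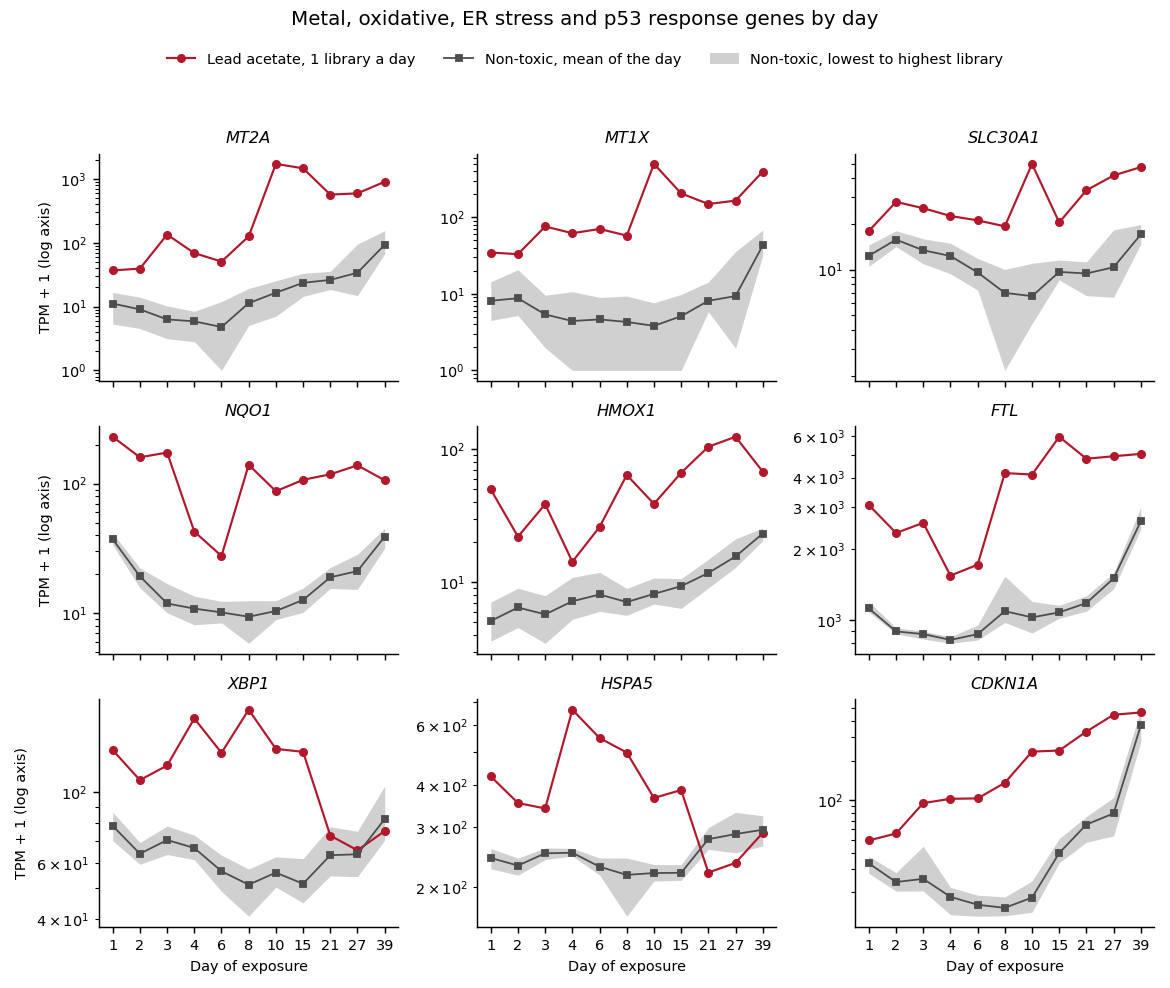
TPM + 1 on a log axis against day of exposure (days evenly spaced) for 9 stress response genes, with lead libraries as joined points and the same-day non-toxic libraries as their range and mean. MT2A, MT1X, SLC30A1, NQO1, HMOX1 and FTL lie above the non-toxic range on all 11 days, XBP1 and HSPA5 are no longer above it from day 21, and CDKN1A lies inside it on day 39.

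NRF2 targets rose in breadth and from day 1. Of 35 tested, 30 rose over days 1 to 39, against 21.2% of all genes. On the early days 26 rose, against 10.8%, and on the late days 28, against 21.3%. Only the efflux pump ABCC3 fell late (−0.28). The median difference was 0.54 early and 0.82 late, and the list median lay above every non-toxic library on each day. In lead libraries it was 0.65, 0.59, 0.80, 0.31 and 0.28 on the early days, lowest on days 4 and 6, and stood at 0.98 on day 8.

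NQO1, a quinone reductase and the classic NRF2 reporter, had 229, 159, 173, 41.6 and 26.6 TPM in early lead libraries, against 7.11 to 40.4 TPM in non-toxic ones. Late lead libraries had 139, 86.4, 106, 117, 138 and 105 TPM, against 4.83 to 44.1 TPM. No non-toxic library reached the lead value of its day. The lead level was lowest on days 4 and 6, while early non-toxic day means ranged over 9.11 to 36.1 TPM. The rise was 2.61 ± 0.13 early and 2.82 ± 0.12 late (adjusted p = 4.9e-41 and 7.5e-49), and the difference between them, 0.21 ± 0.17, did not pass the test (adjusted p = 0.43); it passed without the lead library of day 3 or of day 27, at 0.53 and 0.49. HMOX1, heme oxygenase 1, which breaks heme down and frees its iron, had 48.8, 21.0, 37.5, 13.2 and 25.0 TPM early, against 2.47 to 10.9 TPM, and 63.0, 37.8, 65.4, 103, 123 and 66.8 TPM late, against 4.63 to 24.6 TPM. It was above the range on 11 of 11 days and rose by 2.41 ± 0.10 (adjusted p = 3.5e-49).

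Among the early days, lead levels were also lowest on days 4 and 6 for SLC7A11, ME1, TXNRD1, SRXN1, PIR and GCLM. These are genes of glutathione, thioredoxin and NADPH supply. Non-toxic day means moved over the early days as well, between 2.55 and 13.3 TPM for SLC7A11 and between 7.12 and 10.4 TPM for GCLM. A low lead level is thus not by itself a smaller lead effect. SLC7A11, the cystine importer that feeds glutathione synthesis, had 31.3, 27.1, 28.9, 12.03 and 11.5 TPM early, against 1.77 to 15.2 TPM, and 36.7, 32.5, 24.1, 28.8, 41.8 and 16.3 TPM late, against 0.420 to 11.5 TPM. It rose by 2.18 ± 0.10 over all days (adjusted p = 3.3e-47), and more on late days (by 0.85 ± 0.17). Malic enzyme ME1, a source of NADPH, rose by 1.79 ± 0.08, thioredoxin reductase TXNRD1 by 1.04 ± 0.07, sulfiredoxin SRXN1 by 1.08 ± 0.06 and pirin PIR by 1.49 ± 0.07. These 4 were above the range on 11 of 11 days. GCLM, the modifier subunit of the first glutathione enzyme, rose by 0.92 ± 0.07 but lay inside the range on 2 days. AKR1C3, an aldo-keto reductase whose close paralogs make read assignment uncertain, rose by 2.32 ± 0.19 late. The antioxidant core TGACNNNGC, with both strands searched, stood in 8 of the 26 list members with a RefSeq stretch. Of all 35116 single stretches, 10.9% held it. The units differ, since a member with several stretches counted where any of them matched.

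Both chains of ferritin, the iron store, rose. FTL, the light chain, had 3059.8, 2332, 2573, 1541 and 1713 TPM in early lead libraries, against 797 to 1194 TPM in non-toxic ones, and 4175, 4116, 5940.3, 4799, 4918 and 5031 TPM late, against 881 to 2992 TPM. The groups did not overlap on any day, and FTL rose by 1.57 ± 0.05 (adjusted p = 1.7e-65). FTH1, the heavy chain, was likewise above the range on 11 of 11 days, with 3351 to 5831 TPM late, against 1589.7 to 3226 TPM, and rose by 1.04 ± 0.04. Both effects were larger late, by 0.59 ± 0.08 for FTL and 0.63 ± 0.07 for FTH1 (adjusted p = 1.2e-09 and 4.7e-14). Both genes have many processed pseudogenes, so their totals are uncertain. Of 13 iron handling genes, both ferritin chains included, 7 rose, against 21.2% of all genes, and 1 fell, against 25.0%. The transferrin receptor TFRC rose by 0.34 ± 0.06, the iron-sensing aconitase ACO1 by 0.35 ± 0.05 and the mitochondrial carrier SLC25A28 fell by 0.20. TFRC was above the same-day range on 6 of 11 days and below it on 2 late days.

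Of 12 heme genes, 7 rose, against 21.2% of all genes, and 2 fell, against 25.0%. ALAS1, the first and rate-limiting step, had 81.6, 67.9, 78.2, 61.7 and 65.3 TPM early with lead, against 40.9 to 60.4 TPM, and was above the same-day range on 11 of 11 days (rise of 0.49 ± 0.05, adjusted p = 8.6e-16). FECH, the last step, which inserts iron, rose by 0.67 ± 0.05 and was above the range on 11 of 11 days. ALAD, the zinc enzyme that lead is known to inhibit, had 29.9, 28.1, 26.1, 21.1, 30.1 and 25.98 TPM late with lead, against 5.97 to 48.0 TPM. It fell by 0.32 ± 0.10 late (adjusted p = 0.0035); early, the difference of −0.21 ± 0.10 did not pass the test (adjusted p = 0.15). Without the day 21 lead library the late difference was −0.18 and did not pass. PPOX, the step before FECH, fell by 0.41 ± 0.05 and was below the range on 7 of 11 days. These are transcript levels and say nothing of enzyme activity.

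ER chaperones and other genes of the unfolded protein response rose from day 1, with the highest list medians on days 4 to 8 and the lowest from day 21. Of 25 tested, 20 rose on the early days (median 0.61), against 10.8% of all genes. Late, 18 rose and 1 fell (median 0.38), against 21.3% of all genes higher and 24.8% lower. Against DMSO alone 13 rose early. The list median was 0.33, 0.33, 0.27, 1.03 and 0.89 on the early days and 0.91, 0.50, 0.59, 0.12, 0.14 and 0.13 on the late ones, with non-toxic medians of at most 0.12 on any day. The late effect was smaller than the early one for 8 of 25 members and larger for none, against 8.87% of all genes with a more negative late effect.

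The ER stress element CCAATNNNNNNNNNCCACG, known to be read by ATF6 and XBP1 with NF-Y, was searched on both strands. It stood in 7 of the 22 list members with a RefSeq stretch and in 26 of 35116 single stretches (0.074%). Here too a member with several stretches counted where any of them matched, so the units differ. Stretches around the matches are shown for 5 members to set their letters beside each other, from GRCh38.p14, with matches in capitals and each on its gene's strand.
XBP1, chr22:28800593-28800631, minus strand: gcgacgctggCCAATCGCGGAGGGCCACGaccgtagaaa
HSPA5, chr9:125241381-125241419, minus strand: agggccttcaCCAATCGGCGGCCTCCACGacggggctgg
HSP90B1, chr12:103930206-103930349, plus strand: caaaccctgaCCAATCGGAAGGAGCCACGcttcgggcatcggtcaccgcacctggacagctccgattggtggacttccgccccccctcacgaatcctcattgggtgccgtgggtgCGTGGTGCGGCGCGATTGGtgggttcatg
CALR, chr19:12938374-12938412, plus strand: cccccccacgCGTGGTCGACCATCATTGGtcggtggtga
CRELD2, chr22:49918544-49918582, plus strand: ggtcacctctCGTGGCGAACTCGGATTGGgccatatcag

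XBP1, the transcription factor spliced by IRE1 on ER stress, had 134, 108, 120.1, 169 and 132 TPM in early lead libraries, against 47.8 to 85.4 TPM in non-toxic ones. On late days it had 180.2, 136, 133, 72.0, 64.7 and 74.5 TPM with lead, against 39.8 to 103 TPM. Lead values were above the same-day range through day 15 and inside it on days 21, 27 and 39. XBP1 rose by 0.98 ± 0.09 early and 0.77 ± 0.08 late (adjusted p = 1.2e-18 and 5.7e-15), and the difference between windows did not pass the test (−0.22 ± 0.12, adjusted p = 0.20). It passed without the lead library of day 8, 10 or 15, at −0.43, −0.33 and −0.33. TPM per gene does not separate the spliced form.

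HSPA5 (BiP), the main ER chaperone, had 422, 353, 339.8, 664 and 548 TPM early, against 216 to 259.9 TPM, and 497, 365, 385, 219.9, 235 and 288 TPM late, against 163 to 331 TPM. It peaked on day 4 and lay below the non-toxic range on days 21 and 27. Its early rise of 0.90 ± 0.07 (adjusted p = 3.5e-23) was the larger one, with a late minus early contrast of −0.55 ± 0.09 (adjusted p = 1.1e-06). That contrast did not hold against DMSO alone. HSP90B1, the ER form of HSP90, peaked at 1078 TPM on day 4, against 375 to 410.2 TPM, and rose by 0.92 ± 0.07 early. MANF, a secreted ER stress factor, rose by 1.09 ± 0.08 early and 0.68 ± 0.07 late, and PDIA4, a disulfide isomerase, by 0.86 ± 0.06 and 0.84 ± 0.06; both were above the range on 11 of 11 days. CALR and CRELD2 rose by 0.63 ± 0.05 and 0.56 ± 0.08 early, and the late CRELD2 difference of 0.13 ± 0.07 did not pass the test (adjusted p = 0.13). HERPUD1, which serves ER-associated degradation, rose by 0.82 ± 0.07 and was above the range on 10 of 11 days.

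Targets of ATF4, the factor of the integrated stress response, rose in 16 of 21 cases in either window, against 10.8% of all genes early and 21.3% late, with medians of 0.58 early and 0.49 late. Against DMSO alone the early count was 7. The list median peaked at 1.36 on day 8 and was −0.21 on day 39. CHAC1, which degrades glutathione, had 11.1, 8.60, 14.2, 17.2 and 23.4 TPM early, against 2.37 to 11.8 TPM, and 66.7, 63.9, 74.9, 40.5, 34.0 and 28.99 TPM late, against 11.04 to 39.8 TPM. It was above the range on days 1 to 27 and inside it on day 39, and rose by 1.24 ± 0.10 (adjusted p = 7.0e-24). SLC7A5, a large neutral amino acid importer, rose by 1.16 ± 0.07 and was above the range on 11 of 11 days. DDIT3 (CHOP) had 47.5 TPM on day 6, against 11.3 to 25.3 TPM, but 52.2 TPM on day 39, below the non-toxic 65.9 to 128 TPM. NUPR1, a stress-induced chromatin protein, rose by 1.47 ± 0.17. DDIT4, which restrains mTORC1 and is also a hypoxia target, was the exception and fell by 0.77 ± 0.12 late (adjusted p = 1.1e-08).

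Cytosolic heat shock chaperones changed little in size. Of 18 tested, 16 rose and 1 fell over all days, against 21.2% and 25.0% of all genes, with a median of 0.21; against DMSO alone 8 rose. HSPA1A, the inducible HSP70, had 143, 75.7, 119, 103 and 136 TPM early with lead, against 85.9 to 143 TPM, and its early difference of −0.07 ± 0.09 did not pass the test (adjusted p = 0.63). Late it rose by 0.38 ± 0.09, a call lost without days 15 and 21, with read assignment between HSPA1A and its near-identical copy HSPA1B uncertain. HSPB1, the small chaperone HSP27, rose by 0.62 ± 0.06 and peaked at 628 TPM on day 15, against 208 to 278 TPM. Proteasome subunits rose in 26 of 31 cases, against 21.2% of all genes, with a median of 0.13, and in 16 against DMSO alone.

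Targets of p53 rose together, with a smaller list median on day 39 than on the other late days. Of 21 tested, 19 rose early (median 0.64) and 21 of 21 late (median 0.99), against 10.8% and 21.3% of all genes, and the late effect was larger for 13, against 9.30% of all genes. That 13 was 5, 8 and 7 without the lead library of day 1, of day 2 and of day 10. The list median was above the non-toxic range on every day, at 0.27 on day 1, reached 1.27 on days 10 and 27, and was 0.34 on day 39.

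CDKN1A (p21), which halts the cell cycle, had 48.5, 54.8, 94.0, 101 and 102 TPM in early lead libraries, against 12.1 to 43.6 TPM in non-toxic ones. Late lead libraries had 134, 233, 237, 331, 445 and 463 TPM, against 12.2 to 486 TPM. Lead was above the range on days 1 to 27; on day 39 non-toxic cultures had reached 277 to 486 TPM themselves and the groups overlapped. CDKN1A rose by 2.14 ± 0.11 (adjusted p = 8.4e-42). GDF15, a secreted stress cytokine driven by p53 and ATF4, had 6.49, 14.7, 16.7, 19.3, 14.2 and 14.1 TPM late, against 0 to 11.8 TPM, and rose by 2.61 ± 0.20 (adjusted p = 4.2e-25). PHLDA3, a brake on AKT, rose by 1.39 ± 0.08, the death receptor TNFRSF10B by 1.30 ± 0.08 and the RNA-binding protein ZMAT3 by 1.24 ± 0.07, each above the range on 11 of 11 days. MDM2, the ligase that degrades p53, rose by 0.54 ± 0.05, and the mitochondrial death effector BAX by 0.77 ± 0.05.

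Cell division genes did not follow CDKN1A as a group over all days, and their direction was not the same on all days. None of 14 G2 and mitosis genes passed the test over all days with limma, at 46.2% of all genes called, and 1 of the 14 had an unadjusted p under 0.05. Early, 2 rose, against 10.8% of all genes, and 3 fell late, against 24.8%. The list median was 0.22, 0.27, 0.47, −0.10 and −0.31 on the early days and 0.32, −0.24, −0.71, −0.65, −0.23 and 0.81 on the late ones. It lay above the same-day non-toxic range on days 1, 2, 3, 8 and 39 and below it on days 4, 6, 10, 15 and 21. Single libraries decided these counts, since 11 fell late without the day 27 lead library and 0 without that of day 21. Of 14 S phase genes 2 rose and 2 fell, against 21.2% of all genes higher and 25.0% lower, and 6 fell without the day 27 lead library. MCM7, a subunit of the replicative helicase, stood out with 249.8, 319.9, 249.7, 269.9 and 186 TPM early, against 240.2 to 487 TPM, below the same-day range on all 5 early days, and fell by 0.59 ± 0.04 (adjusted p = 1.2e-26). Of the other helicase subunits, MCM5 fell by 0.15 early and MCM4 fell by 0.11 over all days.

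Genes of inhibitory neurons fell. Of 9 GABA system genes tested, 6 fell over all days and none rose, with a median of −0.30, against 25.0% of all genes lower and a median of −0.02. GAD1, which makes GABA, had 1.09, 5.56, 6.34, 20.8 and 53.7 TPM in early lead libraries, against 3.05 to 106 TPM in non-toxic ones, and 65.8, 83.6, 78.4, 109, 140.3 and 151 TPM late, against 59.7 to 416 TPM. It increased with culture age in both groups, and lead was below the lowest same-day library on 10 of 11 days and inside the range on day 8. GAD1 fell by 1.12 ± 0.09 early and fell by 0.97 ± 0.08 late (adjusted p = 6.6e-22 and 1.7e-20), and its late and early effects did not differ by the test (0.15 ± 0.12, adjusted p = 0.41). GAD2, the synaptic isoform, fell by 0.72 ± 0.07 and was below the range on 10 of 11 days, and SLC32A1, which loads GABA into vesicles, fell by 0.50 ± 0.08. In bulk RNA, fewer cells of a type and less RNA per cell cannot be told apart.

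Synaptic genes fell in 10 of 12 cases and rose in none (median −0.30), and pan-neuronal genes fell in 10 of 14 and rose in 2 (median −0.18), against 25.0% of all genes lower and 21.2% higher. Without days 15 and 21, 5 of the 14 fell. DLG4, the postsynaptic scaffold PSD-95, had 43.5, 51.8, 48.5, 66.1 and 97.0 TPM early, against 48.9 to 138 TPM, and 109, 122, 154, 149, 125 and 132 TPM late, against 71.1 to 247 TPM. It was below the range on 10 of 11 days and fell by 0.55 ± 0.04 (adjusted p = 2.6e-23). SHANK1, another scaffold, fell by 0.65 ± 0.11. The synapse list median was below the non-toxic range on 9 of 11 days and stood at 0.22 on day 39, above it. TUBB3 fell by 0.14 ± 0.03, while the neurofilament NEFL rose by 0.46 ± 0.06 (adjusted p = 3.3e-12). Mesenchyme markers were higher on days 1 to 10 beside these falls, with list medians of 0.62 to 1.75; their part in them was not tested.

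Among glutamate receptor genes, 6 of 10 NMDA and AMPA receptor subunits fell and 2 rose (median −0.22). Of 21 calcium channel and pump genes 10 fell and 2 rose (median −0.16). Of all genes, 25.0% were lower and 21.2% higher. Against DMSO alone 3 receptor subunits fell, and with the length covariate 7 calcium genes rose. GRIN1, the obligatory NMDA subunit, had 15.0, 33.0, 57.8, 58.7, 55.2 and 85.0 TPM late with lead, against 9.64 to 99.4 TPM, and fell by 0.34 ± 0.07 (adjusted p = 8.5e-06). On day 39 it was above the non-toxic range. GRIN2A fell by 0.36 ± 0.08 and the AMPA subunit GRIA2 fell by 0.49 ± 0.09, while GRIA4 rose by 0.74 ± 0.07 on late days (adjusted p = 4.5e-17). The T-type channel CACNA1H fell by 0.56 ± 0.07 and the P/Q-type channel CACNA1A fell by 0.46 ± 0.07. The store sensor STIM1 and its channel ORAI1 rose by 0.27 ± 0.06 and 0.24 ± 0.08.

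Neurogenic transcription factors fell in 9 of 13 cases, against 25.0% of all genes, and rose in none (median −0.30). NEUROG2, which commits progenitors to excitatory neurons, had 57.3, 74.0, 81.0, 98.6 and 107 TPM early, against 89.3 to 146 TPM, and 57.9, 34.1, 17.6, 19.3, 15.2 and 6.75 TPM late, against 26.04 to 92.2 TPM. It was below the range on 10 of 11 days and fell by 0.45 ± 0.10 early and fell by 1.04 ± 0.09 late (adjusted p = 1.2e-04 and 3.5e-20). NEUROD1 fell by 0.44 ± 0.08 and EOMES fell by 0.99 ± 0.20 late. The fall of the list was not steady over the days. Its median was −0.33, −0.25, −0.33 and −0.13 on days 1, 2, 3 and 4. It was 0, 0.04, 0.03 and 0.04 on days 6, 8, 10 and 15, and −0.26, −0.58 and −1.17 on days 21, 27 and 39. On day 39 NEUROG2 stood at 6.75 TPM, against 26.04 to 54.3 TPM. Progenitor genes were mixed, with 5 of 12 higher (3 against DMSO alone), such as NES (0.33 ± 0.03), and 2 lower, PAX6 (−0.35 ± 0.07) and HES5 (−0.35 ± 0.06). Of all genes, 21.2% were higher and 25.0% lower.

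**Figure D3:**
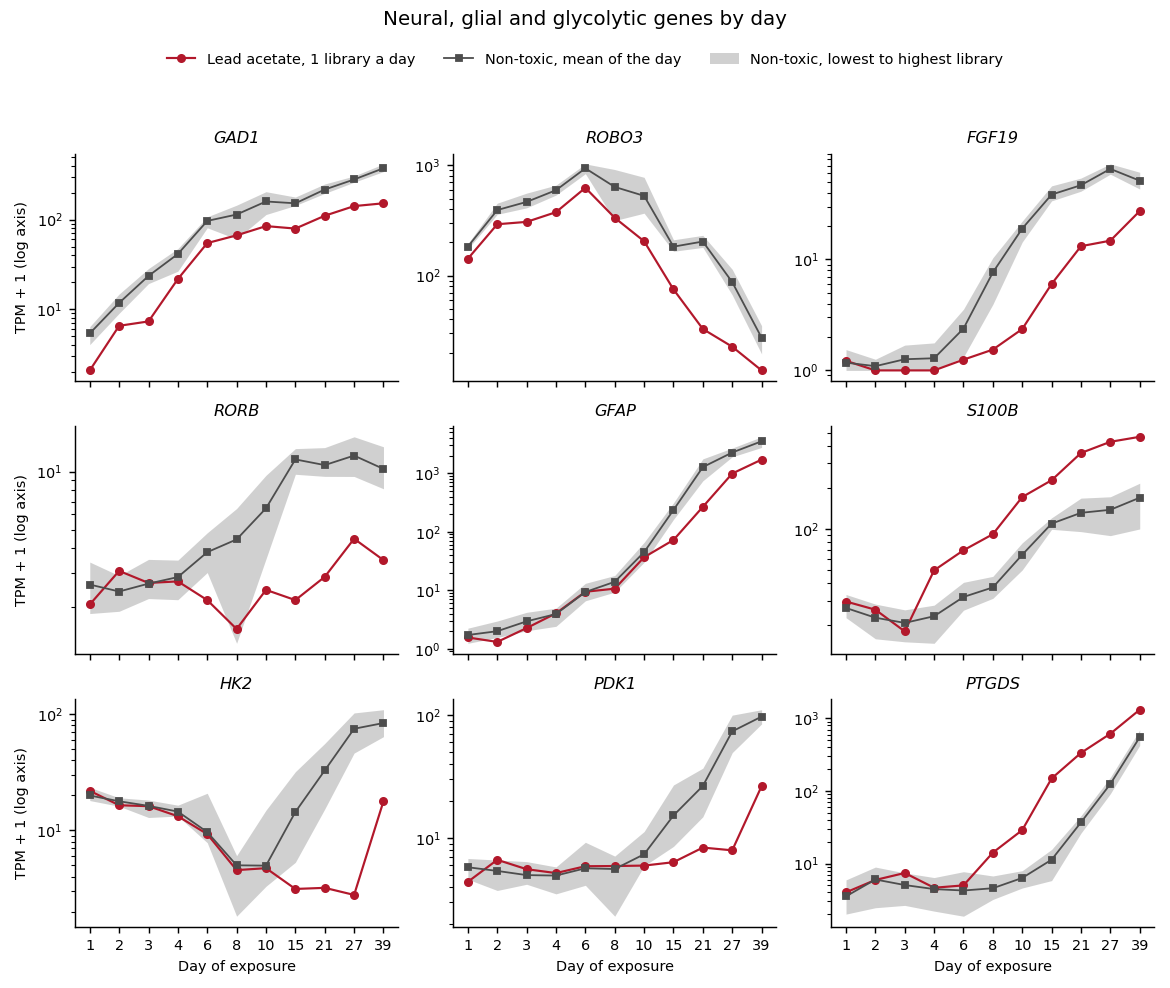
TPM + 1 on a log axis against day of exposure (days evenly spaced) for 9 neural, glial and metabolic genes, with lead libraries as joined points and the same-day non-toxic libraries as their range and mean. GAD1 and ROBO3 lie below the range on 10 of 11 days, FGF19 and RORB part from it on late days, HK2 and PDK1 fail to reach the late non-toxic levels, and PTGDS and S100B lie above it late.

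FGF3, FGF19 and ROBO3 were among the 10 genes with the largest falls over days 1 to 39 by the selection rule. FGF3, a fibroblast growth factor, was at 0 in all early lead libraries and 0 to 1.29 TPM in early non-toxic ones; on late days it had 0, 1.32, 29.3, 57.2, 41.2 and 64.2 TPM with lead, against 3.73 to 181 TPM. FGF19, another fibroblast growth factor of early brain patterning, had 0.540, 1.36, 5.01, 12.2, 13.8 and 26.3 TPM late with lead, against 2.94 to 71.7 TPM. Both started to appear later with lead: on day 8 FGF3 was 0 and FGF19 0.540 TPM, against 3.73 to 9.96 and 2.94 to 9.36 TPM. FGF3 fell by 1.90 ± 0.13 late and FGF19 fell by 2.13 ± 0.11 (adjusted p = 2.3e-28 and 2.8e-38). ROBO3, a receptor for midline crossing of axons, had 141, 291, 306, 375 and 624 TPM early, against 174 to 1029 TPM, and 333, 204, 73.9, 31.8, 21.6 and 12.8 TPM late, against 18.5 to 915 TPM. It peaked on day 6 in lead cultures and fell by 0.53 ± 0.11 early and fell by 1.502 ± 0.10 late (adjusted p = 5.2e-05 and 6.6e-29).

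RSPO1, a Wnt agonist, had 1.57, 1.34, 1.59, 3.61 and 4.69 TPM early, against 2.86 to 13.4 TPM, the largest early fall of the selected genes (−1.28 ± 0.14, adjusted p = 2.0e-14). PCP4, a calmodulin-binding protein of maturing neurons, had 0.900, 0, 0.870, 1.55 and 21.9 TPM early, against 0 to 123 TPM, and 145, 355, 804, 871, 1041 and 1508 TPM late, against 343 to 1585 TPM. It was lower on the days of its first increase and inside the range on day 39, with a fall of −0.997 ± 0.19 early (adjusted p = 1.1e-05). The orphan receptor NR4A2 fell by 0.98 ± 0.13 early and the late difference of −0.13 ± 0.13 did not pass the test (adjusted p = 0.42). RORB, a nuclear receptor of retina and cortex, stayed at 0.530 to 3.49 TPM late with lead, against 0.290 to 14.2 TPM, and fell by 1.67 ± 0.13 (adjusted p = 3.0e-23). The histone gene HIST1H2AC fell by 0.99 ± 0.20 early; it and CBWD5 belong to families of near-identical copies, so their values are uncertain. CBWD5 differed late by −1.71 ± 0.67 (adjusted p = 0.029), and by −1.65, −1.64, −1.45 and −1.54, none past the test, without the lead library of day 8, 15, 27 or 39.

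Glial genes split. GFAP, the astrocyte filament, had 9.66, 35.8, 71.5, 266, 991 and 1715 TPM late with lead, against 8.29 to 4211 TPM, below the same-day range on 5 of 11 days, and fell by 1.11 ± 0.13 (adjusted p = 2.6e-13). S100B, also used as an astrocyte marker, had 90.4, 169.6, 225, 356, 430.3 and 468 TPM late, against 30.1 to 214 TPM, above the range on all 6 late days, and rose by 1.41 ± 0.10 (adjusted p = 2.3e-25). The gap junction protein GJA1 rose by 0.91 ± 0.10. Over the list 5 of 11 astrocyte genes rose and 2 fell, and of 7 oligodendrocyte lineage genes 3 rose, among them MBP (0.63 ± 0.10), and 2 fell, against 21.2% of all genes higher and 25.0% lower. PTGDS, the prostaglandin D2 synthase of glia and leptomeninges, had 13.1, 27.9, 148, 334, 614 and 1317 TPM late with lead, against 2.20 to 692 TPM. It was above the range on all 6 late days and rose by 2.40 ± 0.18 (adjusted p = 1.5e-24), while its early difference of 0.27 ± 0.20 did not pass the test (adjusted p = 0.36).

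Genes of hypoxia and glycolysis were lower on the late days as a whole. All 12 tested fell on the late days (median −0.66, against −0.03 over all genes), against 24.8% of all genes lower. Early, 3 rose (median 0.11), against 10.8% of all genes, and 0 of them against DMSO alone. For 12 of 12 the late effect was more negative (median −0.92, against −0.01), against 8.87% of all genes. The list median was 0.24 on day 8, above the highest non-toxic library at 0.20, and 0.08 on day 10, inside the non-toxic range. It was −0.56, −0.93, −1.91 and −1.31 on days 15, 21, 27 and 39, when non-toxic libraries reached −0.45 at the lowest.

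HK2, the inducible hexokinase, had 20.9, 15.5, 15.2, 12.3 and 8.31 TPM in early lead libraries, against 6.85 to 22.5 TPM in non-toxic ones, and 3.56, 3.74, 2.14, 2.21, 1.79 and 16.9 TPM late, against 0.830 to 108 TPM. In non-toxic cultures it was highest on days 27 and 39, while lead libraries were lowest on days 15 to 27. HK2 fell by 2.02 ± 0.22 late (adjusted p = 4.8e-15), and early the difference was −0.02 ± 0.23 (adjusted p = 0.97). PDK1, which keeps pyruvate out of the mitochondrion, had 4.91, 4.96, 5.35, 7.35, 6.93 and 25.4 TPM late, against 1.31 to 109 TPM, and fell by 1.33 ± 0.15. The lactate exporter SLC16A3 had 1.83 TPM on day 27, against 39.7 to 96.3 TPM, and fell by 1.85 ± 0.24 late. VEGFA changed direction: it rose by 0.77 ± 0.22 early and fell by 0.61 ± 0.21 late (adjusted p = 0.0053 and 0.011), with 17.3 TPM on day 27, against 109 to 208 TPM. LDHA did the same, with 0.36 ± 0.11 early and −0.65 ± 0.11 late. The late fall of VEGFA did not pass without the lead library of day 21, 27 or 39 (−0.35, −0.32 and −0.11), nor the early rise of LDHA without that of day 3 (0.31). Non-toxic libraries themselves spread widely in these genes on late days, and against DMSO alone 9 of 12 fell late and 2 of 12 had a more negative late effect.

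**Figure D4:**
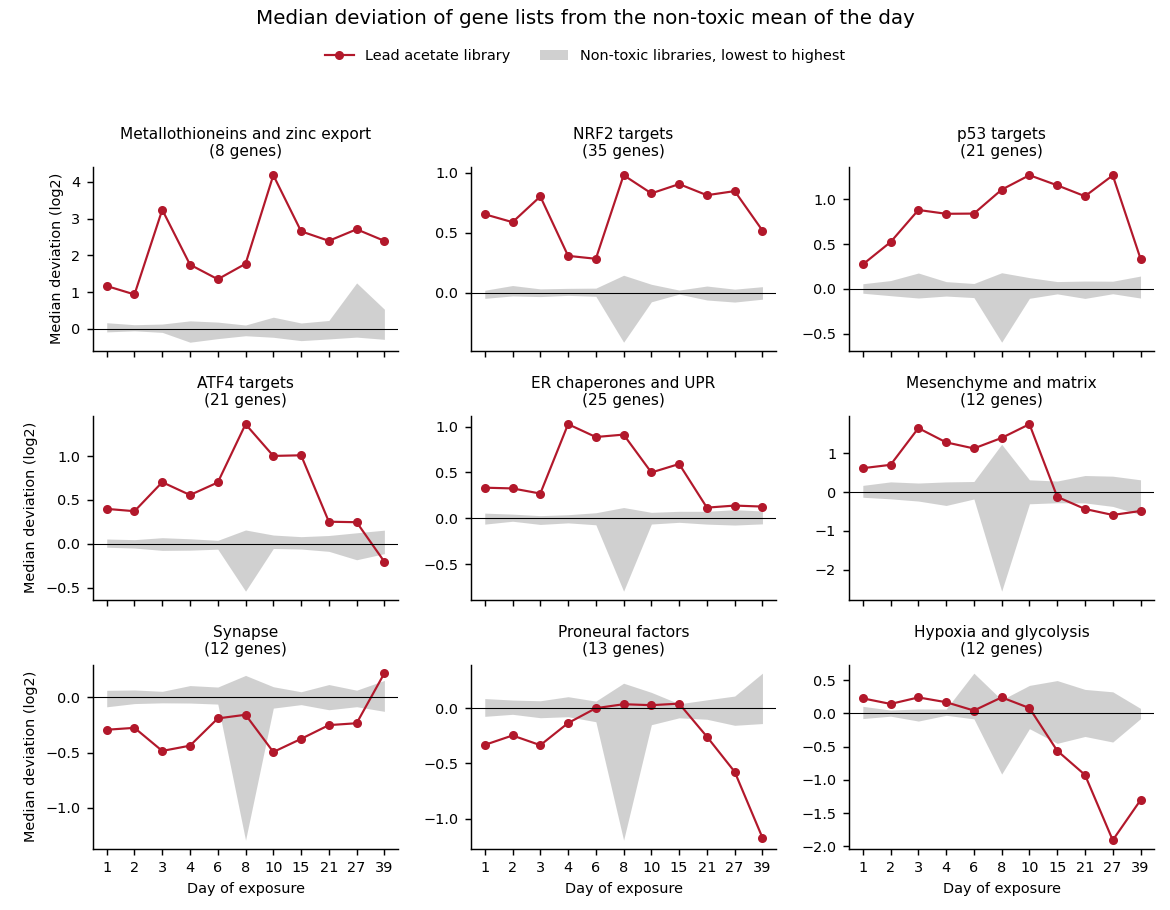
Median deviation, log2(TPM + 1), from the mean of that day's non-toxic libraries over the tested members of 9 gene lists on each of the 11 days (evenly spaced), with lead libraries as joined points and the range of single non-toxic libraries as a band. Metallothionein, NRF2 and p53 medians stay above the band on all days, the ER chaperone median is highest on days 4 to 8, the hypoxia and glycolysis median lies below the band from day 15, and the wide band on day 8 holds the Ibuprofen library that stands apart.

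Markers of mesenchyme and matrix moved with lead. Of 12 such genes 11 rose early (median 1.10), against 10.8% of all genes, and 7 against DMSO alone. Late, 4 rose and 1 fell (median 0.32), against 21.3% of all genes higher and 24.8% lower. The list median was above the non-toxic range on days 1 to 10, at 0.62 to 1.75, and between −0.59 and −0.12 on days 15 to 39. Summed over the list, early lead libraries held 1779 to 3930 TPM, against 688.4 to 3180.1 TPM in non-toxic ones, and late lead libraries 1580.0 to 5269 TPM, against 184.7 to 10288 TPM. LUM, a matrix proteoglycan, had 169.9, 140.0, 168, 82.1 and 66.5 TPM early, against 8.28 to 121 TPM, and rose by 1.91 ± 0.20 (adjusted p = 5.9e-15); the collagen COL3A1 rose by 1.36 ± 0.24. For 9 of 12 the late effect was more negative than the early one, against 8.87% of all genes, and for 5 without the lead library of day 3 or of day 39. The count of 4 that rose late was 2, 1 and 7 without the lead library of day 8, of day 10 and of day 21, and 1 against DMSO alone. The part of these markers in the neural and stress results was not tested.

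IGFBP3, a growth factor binding protein also made by mesenchyme, followed the same course. It had 67.8, 66.4, 109, 40.6 and 23.3 TPM early, against 7.84 to 26.8 TPM, and 44.8, 61.5, 26.6, 78.5, 121 and 112 TPM late, against 3.29 to 423 TPM. It rose by 1.804 ± 0.20 early (adjusted p = 9.2e-14) and its late difference of −0.10 ± 0.19 did not pass the test (adjusted p = 0.69). ELN, elastin, went the other way and fell by 1.47 ± 0.15 late, with 19.8 to 95.0 TPM, against 12.8 to 332 TPM. Markers of other cells were low: 1 of 9 microglia genes passed the filter, CD68, and the list summed to 3.84 to 6.84 TPM in early lead libraries, against 2.95 to 8.54 TPM. Endothelial genes (1 of 5 higher, 1 lower), epithelial genes (2 of 7 higher) and pluripotency genes (1 of 7 higher, 1 lower) showed no shared direction. These counts stand beside 21.2% of all genes higher and 25.0% lower.

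Of the remaining genes picked by size of change, SLC15A3, a lysosomal transporter of histidine and small peptides, had 14.8, 28.9, 45.4, 60.7 and 114 TPM early, against 6.59 to 34.4 TPM, and 148, 182, 119, 72.4, 47.8 and 27.1 TPM late, against 2.13 to 36.0 TPM. It was above the range on 11 of 11 days and peaked on day 10. SLC15A3 rose by 1.08 ± 0.15 early and 2.85 ± 0.14 late (adjusted p = 1.7e-09 and 4.9e-42). HGFAC, a protease that activates hepatocyte growth factor, fell by 1.18 ± 0.12, the carboxylesterase family gene CES4A fell by 1.09 ± 0.12, the gene C17orf96 fell by 1.05 ± 0.09 and the kinase MAPK15 fell by 0.99 ± 0.11. Lists of other responses were mixed: against 21.2% of all genes higher and 25.0% lower, 7 of 17 cholesterol synthesis genes rose (3 without the lead library of day 1, 8, 10 or 15, and 12 with the length covariate) and 3 fell, 4 of 11 immediate early genes rose and 2 fell, and 5 of 9 NF-kB and cytokine genes rose and 3 fell (1 against DMSO alone). The AP-1 factor FOSL1 rose by 1.29 ± 0.12 and the early response factor EGR1 by 0.85 ± 0.11.

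**Figure D5:**
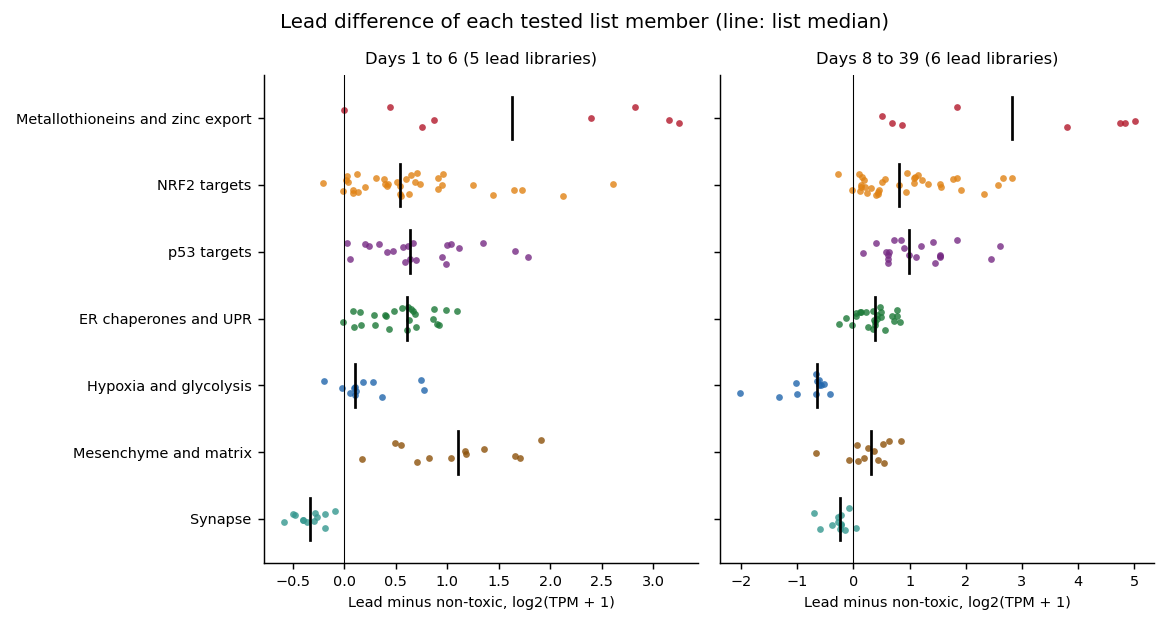
Fitted difference of each tested member of 7 gene lists, lead minus non-toxic in log2(TPM + 1), on days 1 to 6 (left) and days 8 to 39 (right, on another scale), with 1 point per gene and the list median as a black line. Metallothioneins reach 5.01 on the late days, hypoxia and glycolysis members have a median of 0.11 early and −0.66 late, and mesenchyme members of 1.10 early and 0.32 late.

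Arsenic at 5 µM and Cadmium at 50 µM, both labelled toxic, were collected on the same early days with 1 library a day each; since doses differ from that of lead, values are given beside each other without a comparison. MT2A had 35.8, 38.4, 134, 68.0 and 49.7 TPM with lead, 3680.4, 2443, 3796, 3094 and 4174 TPM with Arsenic and 36752, 35993, 33799, 25049 and 18078 TPM with Cadmium. NQO1 had 229, 159, 173, 41.6 and 26.6 TPM with lead, 457, 515, 549, 508 and 567 TPM with Arsenic and 55.9, 55.8, 39.2, 39.5 and 129 TPM with Cadmium. HSPA1A ranged over 75.7 to 143 TPM with lead, 1047 to 16896 TPM with Arsenic and 13669 to 38688 TPM with Cadmium. XBP1 ranged over 108 to 169 TPM with lead, 172 to 696 TPM with Arsenic and 179.8 to 387 TPM with Cadmium. On the late days, when neither of these metals was collected, the mean deviation of MT2A, MT1X, NQO1, HMOX1 and FTL was higher with lead than with any of the 20 other toxic compounds that had at least 3 late libraries, each at its own dose, a ranking given without a test.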

How the data were processed

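RNA-seq libraries of human neural cultures were quantified by the authors as TPM per gene from RSEM 1.2.1 with Bowtie 0.12.8 on hg19 after CASAVA 1.8.2, per the submitters' processing notes, which give no order of use. The deposited TPM sum to 1 fixed total in each library and hold no read counts, so sequencing depth is unknown and no counting interval is given. No 2 libraries used here were identical. From the files, log2(TPM + 1) was fitted for 15255 of 19084 genes, those with at least 1 TPM in at least 5 of the 159 libraries, with limma 3.58.1 in R 4.3.3 (mean-variance trend, day as a factor, compound as a random block with correlation 0.0136). Files were read with data.table (version 1.17.8), and figures drawn in Python 3.11.15 with matplotlib 3.10.9. P-values are two-sided and adjusted by Benjamini-Hochberg over all genes tested, with a threshold of 0.05. A version of the fit without the compound block was tested on simulated data with known changes, the same on every day.

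The members, gene lists and markers were chosen with earlier results of these data known. Genes named are NQO1, MT2A and XBP1, the 10 largest called changes each way over days 1 to 39 and the 5 largest each way in each window (at least 5 TPM in a group, one sign on 80% of the days or more), the 5 largest each way of the late minus early contrast, and the largest and called members of each list. LAMP1, CD63 and CTSD were chosen after their values were seen. Alternatives were pseudocounts of 0.1 and 5, no filter, no compound block, robust moderation, libraries centred on their median, a transcript length trend as a covariate, leaving out days 15 and 21, Ibuprofen, or each lead library, and DMSO alone paired by day. Transcript lengths from GENCODE 29 were found for 9571 of 10292 genes (92.99%). One gene of the lists is not reported here.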

Additional observations from a re-analysis of the deposited data

Results flagged for a closer look

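In 11 of the 188 checks made, 1 lead library stood far from the other lead libraries of its window in how far it deviated, in log2(TPM + 1), from the mean of that day's non-toxic libraries, where chance gives about 1 in 20. On day 39 GDF15 deviated by 0.87, against 2.69 to 3.27 on the other late days, the p53 target ZMAT3 by 0.36 (others 1.46 to 2.09), GRIN1 by 0.40 (others −0.61 to −0.26) and RSPO1 by 0.37 (others −0.80 to −0.54). On day 3 MT1M deviated by 2.40 (others −0.16 to 0.00) and SLC7A5 by 1.38 (others 0.97 to 1.05). On day 6 SLC15A3 deviated by 2.08 (others 0.69 to 1.08), FGF3 by −0.60 (others −0.06 to 0.00) and CTSD by 0.52 (others 0.13 to 0.18). CES4A deviated by −0.12 on day 4 (others −1.03 to −0.78) and VEGFA by 0.30 on day 1 (others 0.82 to 0.97).

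For 59 of 94 genes the lead effect itself differed between late and early days by limma's test with Benjamini-Hochberg adjustment, more positive late for 32 and more negative late for 27. Over all genes the shares were 18.2%, 9.30% and 8.87%. Some of the 94 were picked for large late minus early differences, so the counts follow in part from that choice. Values are late minus early differences in log2(TPM + 1). On this scale early differences are understated where early levels were near 0 TPM, as for MT1E without lead and for FGF3 and FGF19. Among metal and oxidant response genes they were 2.61 for MT1E, 1.59 for MT2A, 1.58 for MT1X, 0.97 for SLC30A1, 1.36 for AKR1C3, 0.85 for SLC7A11, 0.54 for HMOX1, 0.32 for SRXN1, 0.63 for FTH1, 0.59 for FTL, 0.58 for the autophagy receptor SQSTM1 and −0.39 for PPOX. Among p53 and stress genes they were 0.96 for GDF15, 0.66 for CDKN1A, 0.50 for TNFRSF10B, 0.46 for ZMAT3, 0.38 for MDM2, 0.33 for HSPB1, 0.45 for HSPA1A and −0.49 for DDIT4. ER chaperone genes had −0.55 for HSPA5, −0.50 for HSP90B1, −0.42 for MANF, −0.37 for CALR and −0.43 for CRELD2. Lysosomal genes had 0.48 for LAMP1, 0.51 for CD63, 0.75 for CTSD and 1.76 for SLC15A3.

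Metabolic and hypoxia genes had −2.20 for SLC16A3, −1.996 for HK2, −1.38 for PDK1, −1.38 for VEGFA, −1.01 for LDHA and −0.83 for CA9. Mesenchyme and matrix genes had −1.90 for IGFBP3, −1.28 for LUM, −1.003 for ELN and −0.87 for DCN. Among neural genes the values were 0.16 for TUBB3, 0.32 for NEFL, 0.78 for GRIA4, −0.41 for CACNA1H, −0.59 for NEUROG2, 0.35 for PAX6, 0.85 for NR4A2, −0.98 for ROBO3, −1.51 for RORB, −0.92 for GFAP, 0.92 for S100B and 2.12 for PTGDS. The others were −1.81 for FGF19, −1.76 for FGF3, 0.79 for RSPO1, −0.68 for CES4A, −0.56 for C17orf96, −0.96 for MAPK15, 0.76 for HIST1H2AC and 0.38 for MCM7. Early means were 0.094 TPM with lead and 0.440 TPM without for FGF19, and 0 and 0.126 TPM for FGF3. Little early fall was possible from such levels, so these 2 contrasts do not show that the relative effect of lead differed between windows.

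For 19 of these 59 the difference did not pass without 1 lead library. MT1X had 1.31, 1.27 and 1.08 without day 1, 2 or 10, GDF15 0.65 and 0.76 without day 1 or 2, and CDKN1A 0.36, 0.52 and 0.40 without day 1, 2 or 10. TNFRSF10B had 0.35 and 0.32, and ZMAT3 0.30 and 0.33, without day 1 or 10. HMOX1 had 0.27 to 0.51 without day 2, 4, 6, 8, 15, 21 or 39, SRXN1 0.19 to 0.24 without day 4, 6 or 8, and HSPB1 0.21 to 0.31 without day 2, 6, 10, 15 or 21. MANF had −0.25 without day 6, CACNA1H −0.34 without day 21 and C17orf96 −0.30 without day 39. CES4A had −0.55 to −0.48 without day 6, 21 or 39, DDIT4 −0.42 to −0.15 without day 4, 21, 27 or 39, DCN −0.74 to −0.59 without day 4, 6, 21, 27 or 39 and CA9 −0.72 to −0.28 without day 3, 6, 27 or 39. HIST1H2AC had 0.47 to 0.73 without day 1, 2, 3 or 27, TUBB3 0.08 to 0.14 without day 2, 3, 6, 21 or 27, NEFL 0.20 to 0.29 without day 2, 3, 8 or 10 and PAX6 0.28 to 0.35 without day 1, 3, 6, 8, 10, 15 or 21.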

How the results depend on the processing

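Of 376 single-gene results, none changed direction with another pseudocount, no filter, no compound block, centred libraries, robust moderation, a length covariate, days 15 and 21 left out, Ibuprofen left out or DMSO alone; 99 lost their call against DMSO alone, 20 without days 15 and 21, and at most 12 under any other of these. Leaving out 1 lead library reversed 1 of 4136, MT1M on the early days, which ranged over −0.050 to 0.59. Without days 15 and 21, 2313 genes fell late and 1729 differed between windows, 602 more negative late. With the length covariate, 6601 genes were called early (4718 higher), 5776 rose over all days, 5253 rose late and 5015 differed between windows (2324 and 2691). Without Ibuprofen, 2820 genes fell early and 4741 differed between windows, 2674 lower. Without its day 8 library alone, left out after seeing the data, 5254 genes were called early (2882 lower) and 4824 between windows (2720 lower). Against DMSO alone, 2076 genes rose over all days, 2104 rose late, 864 were called early (543 and 321) and 142 between windows (95 and 47). Without each lead library in turn, calls numbered 6361 to 7128 over all days, 2630 to 3591 early, 6020 to 7177 late and 2114 to 3323 between windows, 846 to 1883 of them lower; 846 was without day 21. The cause of these shifts was not tested. No paired analysis was possible because replicate numbers, which follow accession order only, pair no samples; the pairing against DMSO alone is by day, and day is a factor in every other fit. Depth is unknown, so low genes cannot be given a counting limit.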

Other observations

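LAMP1, CD63 and CTSD, genes in none of the lists, were chosen after their values were seen, so they say nothing of lysosomal genes as a group. LAMP1, a lysosomal membrane protein, rose by 0.62, CD63, a membrane protein of late endosomes and lysosomes, by 0.77, and CTSD, the protease cathepsin D, by 0.63 over days 1 to 39 on the log2(TPM + 1) scale in limma's test, and each was above its same-day non-toxic mean on 11 of 11 days. On the late days the differences were 0.85, 1.01 and 0.98. The early CTSD change did not pass the test without the day 4 lead library, when its difference was 0.16, nor against DMSO alone.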
